A study of Rattus norvegicus with 12 samples.

Results

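The genes Spp2, Ppp1r1a, Nat8f1, Rgn, Hnmt and Glyatl2 were followed in the renal cortex of rats given cisplatin, a platinum compound used against tumours and known for damage to the tubules of the kidney. They were chosen by their measured log2 falls with cisplatin in these same arrays, so their cisplatin changes are given as a description, with no test. They are 6 of the 15645 genes that the array's accessions could be matched to, and 10 of its 61537 probes. Spp2, Ppp1r1a, Nat8f1 and Glyatl2 had 2 probes each, and Rgn and Hnmt had 1 each. The study measured total RNA of renal cortex from 12 male Sprague-Dawley rats of the Crl:CD(SD) stock, bought at 5 weeks of age, on 1-colour arrays with 1 array per rat. Dosing lasted 4 weeks. The groups were cisplatin by gavage (3.75 mg/kg/day), water by gavage, cisplatin by intravenous injection (0.75 mg/kg/day) and water by intravenous injection, with 3 rats each. The intravenous dose is that on the labels of the samples, whereas the treatment text that all samples share gives 3.75 mg/kg/day. Route, dose and experiment changed together and cannot be told apart.

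The kidney cortex is made mostly of proximal tubule, whose cells take up, modify and return or excrete small molecules, and it holds the conjugating enzymes that make such molecules ready for the urine. Among the 6 genes, Nat8f1 belongs to the camello-like N-acetyltransferases, whose relative Nat8 acetylates cysteine conjugates to mercapturates, and Glyatl2 belongs to the glycine N-acyltransferases, which join glycine to fatty or aromatic acyl groups. Hnmt, histamine N-methyltransferase, inactivates histamine inside cells. Rgn, regucalcin, is a calcium-binding protein that in rats also acts as the gluconolactonase of vitamin C synthesis. Spp2, secreted phosphoprotein 24, is a secreted member of the cystatin superfamily that binds bone morphogenetic proteins (BMPs). Ppp1r1a is inhibitor-1 of protein phosphatase 1, which blocks the phosphatase once protein kinase A has phosphorylated it. It is neither an enzyme nor secreted, so the 6 genes are here 4 enzymes, 1 secreted protein and 1 phosphatase inhibitor.

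All values below are the scaled signal, the background-subtracted intensity of a probe relative to the 75th percentile on the same array, so that 1 is the level of that percentile. Probes differ in how brightly they bind, so levels were compared between rats and never between probes or genes. The 75th percentile itself was 1387 to 1532 on the 6 cisplatin arrays and 969.7 to 1055 on the 6 water arrays. The brightest probe of each of the 6 genes was well above background on all 12 arrays, and 0 spots were saturated. Arrays of the same group correlated at 0.981 to 0.993, and arrays of different groups at 0.910 to 0.992. Among the cisplatin rats, the share of features more than 2 log2 units below their water mean was 3.70 to 5.06% by gavage. In the intravenous experiment it was 4.51% in rat 1 against 2.24 and 2.05% in rats 2 and 3, so the intravenous differences of the 6 genes are given with and without rat 1. The 3 intravenous cisplatin arrays had a slide to themselves, so slide and intravenous cisplatin cannot be told apart. The water groups of the 2 experiments also lay on different slides. Gavage cisplatin rat 1 was on slide 1 with the gavage water rats. Gavage cisplatin rats 2 and 3 were on slide 2 with the intravenous water rats. In this bulk tissue, fewer cells of a type and less RNA per cell cannot be told apart either.

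The promoters of 5 of the 6 genes were matched in RefSeq (GRCr8), and Ppp1r1a had no entry. The 250 bases before the start are shown for Rgn and Hnmt, the pair whose 12 values ran most alike, and for Nat8f1, the promoter that held a searched motif. They lie at chrX:4187958-4188207 for Rgn, chr3:27010292-27010541 for Hnmt and chr4:119900358-119900607 for Nat8f1, all on the minus strand, and are printed 5′ to 3′ along the gene. Capitals mark the letters TTTATA, the other-strand reading of the TATA box letters TATAAA.
Rgn: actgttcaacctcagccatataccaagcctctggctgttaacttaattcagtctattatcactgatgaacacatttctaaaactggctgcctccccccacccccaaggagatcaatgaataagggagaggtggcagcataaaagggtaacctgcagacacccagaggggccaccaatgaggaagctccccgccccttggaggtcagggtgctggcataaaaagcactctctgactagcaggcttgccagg
Hnmt: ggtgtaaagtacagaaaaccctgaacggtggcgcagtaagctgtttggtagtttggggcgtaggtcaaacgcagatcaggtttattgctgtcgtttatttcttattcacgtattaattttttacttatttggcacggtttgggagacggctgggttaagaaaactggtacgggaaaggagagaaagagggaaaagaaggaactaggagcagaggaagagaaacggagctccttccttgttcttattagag
Nat8f1: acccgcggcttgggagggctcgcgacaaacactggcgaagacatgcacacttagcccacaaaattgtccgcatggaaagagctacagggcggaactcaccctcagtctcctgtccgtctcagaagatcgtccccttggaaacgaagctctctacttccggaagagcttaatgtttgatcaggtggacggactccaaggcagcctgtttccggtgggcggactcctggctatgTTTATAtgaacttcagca
The Rgn promoter was 51.6% G and C with 1 CG dinucleotide, and the Hnmt promoter was 44% with 10. The Nat8f1 promoter was 54.4% G and C with 14 CG dinucleotides, against medians of 51.2% and 5 over all 33469 promoters of the table. The 4 motifs were searched on both strands, and none of them overlaps another in its letters here. The TATA box letters were in 1 of the 5 promoters, against 12.9% of all promoters. The HNF1 letters GTTAAT (6.45% of all promoters), the HNF4 letters CAAAGTCCA (0.338%) and the PPAR element (0.0508%) were in 0 of the 5. These counts describe letters in the window and nothing beyond it.

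Spp2 was the furthest below water of the 6 genes by gavage, and its cisplatin rats were the most scattered. Its scaled signal was 1.84, 3.16 and 0.203 in gavage cisplatin rats 1, 2 and 3, against 210.2, 227 and 187 in gavage water rats. It was 0.772, 28.1 and 32.3 in intravenous cisplatin rats, against 197, 222 and 225 in intravenous water rats. All 6 cisplatin rats lay below all 6 water rats, but the cisplatin rats were far apart: the highest was 15.5 times the lowest by gavage and 41.8 times the lowest intravenously. The water rats of a group differed by at most 1.21 times. On the log2 scale Spp2 was −7.62 ± 1.35 (SE) in gavage cisplatin minus water, or 196-fold lower, with 3 rats in each group. It was −4.59 ± 1.35 in intravenous cisplatin minus water, or 24.1-fold lower. Here and below, each SE of a cisplatin change comes from a limma fit of all arrays with a variance shared by the groups. It is thus the same in both experiments and does not show the spread of either. The log2 SD of the cisplatin rats was 2.10 by gavage and 3.05 intravenously for Spp2. It was 0.68 and 2.28 for Nat8f1, and 0.39 and 0.30 for Glyatl2. Without intravenous cisplatin rat 1 the intravenous difference was −2.83, and without gavage cisplatin rat 3 the gavage difference was −6.43. The second Spp2 probe read 0.403, 0.706 and 0.0373 in gavage cisplatin rats, against 56.8, 68.1 and 56.4 in gavage water rats. In the intravenous experiment it read 0.171, 6.85 and 8.18 in cisplatin rats, against 53.2, 70.0 and 63.9 in water rats. Both probes thus put the same rat lowest in each experiment.

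Ppp1r1a, the phosphatase inhibitor, has been described in the thick ascending limb of the rat kidney. Its scaled signal was 1.40, 2.65 and 1.00 in gavage cisplatin rats, against 75.2, 86.1 and 83.5 in gavage water rats. It was 1.41, 3.50 and 7.37 in intravenous cisplatin rats, against 93.0, 74.0 and 102.9 in intravenous water rats. The groups did not overlap in either experiment, and every cisplatin rat kept between 1.23 and 8.27% of its experiment's water mean. The log2 difference was −5.72 ± 0.52 by gavage, 52.6-fold lower, and −4.75 ± 0.52 intravenously, 26.9-fold lower. Without intravenous cisplatin rat 1 the intravenous difference was −4.13. Its second probe gave −5.76 and −4.63 with the same lowest rats.

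Nat8f1, the camello-like acetyltransferase, had the largest fall of the 6 by gavage after Spp2. Its scaled signal was 0.0842, 0.145 and 0.0568 in gavage cisplatin rats, against 7.28, 5.95 and 4.76 in gavage water rats. It was 0.0530, 0.687 and 0.940 in intravenous cisplatin rats, against 8.56, 7.04 and 7.04 in intravenous water rats. Water and cisplatin rats did not overlap, and intravenous cisplatin rat 1 lay below all 3 gavage cisplatin rats while rats 2 and 3 lay above them. The log2 difference was −6.06 ± 0.87 by gavage, 66.6-fold lower, and −4.53 ± 0.87 intravenously, 23.1-fold lower. Without intravenous cisplatin rat 1 the intravenous difference was −3.23. Its second, dimmer probe gave −6.01 and −4.40, although it was well above background on only 1 of the 3 gavage cisplatin arrays and 2 of the 3 intravenous ones.

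Rgn had a scaled signal of 0.481, 0.532 and 0.347 in gavage cisplatin rats, against 21.8, 24.0 and 15.4 in gavage water rats. In the intravenous experiment it had 0.470, 3.05 and 2.02 in cisplatin rats, against 40.0, 29.9 and 27.8 in water rats. The 3 gavage cisplatin rats were close together, the highest 1.53 times the lowest, whereas the intravenous ones spanned 6.48 times. Rgn was −5.49 ± 0.56 on the log2 scale by gavage, 45.0-fold lower, and −4.50 ± 0.56 intravenously, 22.6-fold lower. Intravenously it was −3.70 without cisplatin rat 1.

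Hnmt followed Rgn closely. Its scaled signal was 0.219, 0.239 and 0.125 in gavage cisplatin rats, against 6.61, 8.93 and 5.07 in gavage water rats. It was 0.114, 1.32 and 1.12 in intravenous cisplatin rats, against 15.2, 11.5 and 10.4 in intravenous water rats. Again all cisplatin rats lay below all water rats, and intravenous rat 1 kept 0.933% of the intravenous water mean, against 10.8 and 9.19% in rats 2 and 3. The log2 difference was −5.16 ± 0.77 by gavage, 35.8-fold lower, and −4.47 ± 0.77 intravenously, 22.1-fold lower. Intravenously it was −3.33 without cisplatin rat 1.

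Glyatl2 was lower by much less than the other 5 genes. Its scaled signal was 3.00, 4.04 and 2.36 in gavage cisplatin rats, against 20.8, 20.3 and 20.0 in gavage water rats. It was 5.003, 4.16 and 6.33 in intravenous cisplatin rats, against 17.5, 19.5 and 14.2 in intravenous water rats. The cisplatin rats kept 11.6 to 19.8% of the water mean by gavage and 24.6 to 37.5% intravenously, and no cisplatin rat reached a water rat. The log2 difference was −2.73 ± 0.21 by gavage, 6.66-fold lower, and −1.73 ± 0.21 intravenously, 3.32-fold lower, with −1.72 intravenously when rat 1 was left out. The second probe gave −2.69 and −1.88.

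**Figure D1:**
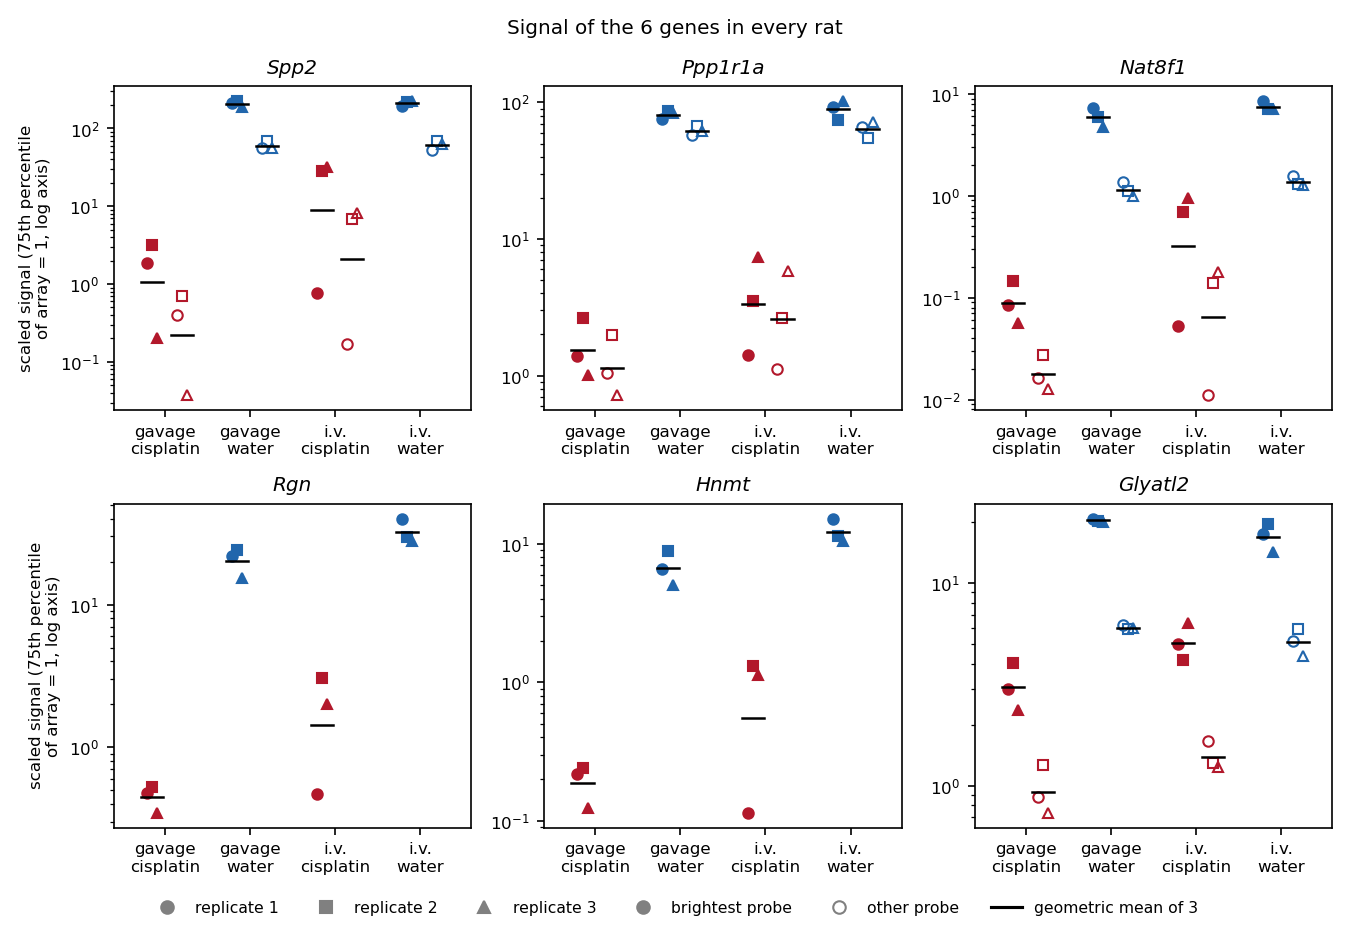
Scaled signal of the 6 genes in each of the 12 rats (log axis, 75th percentile of the array = 1), one panel per gene, with cisplatin in red and water in blue. Symbols stand for replicates 1 to 3, filled for the brightest probe and open for the other, and bars are geometric means of 3 rats. In every panel the cisplatin rats lie below the water rats of their experiment.

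As the choice of genes by their falls would give, all 6 had their 3 cisplatin rats below their 3 water rats in both experiments. The same held for 34.1% of the 32215 features tested in the gavage experiment and 36.8% in the intravenous one. A log2 difference below −2 was found for all 6 by gavage and for 5 intravenously, where 4.18 and 2.71% of features passed it in the gavage and the intravenous experiment. The median of the 6 was −5.60 by gavage and −4.51 intravenously, against −0.03 and −0.01 over the 12610 named genes tested. Ranked by size of fall among those named genes, Spp2 was 11, Nat8f1 26, Ppp1r1a 33, Rgn 37 and Hnmt 48 by gavage, and Glyatl2 was 394. Intravenously Ppp1r1a was 13, Spp2 16, Nat8f1 17, Rgn 19, Hnmt 20 and Glyatl2 554. Glyatl2 was therefore not among the largest falls, while the other 5 stood in the first 50 in both experiments. The order of the group means was the same for 5 of the genes, low to high: gavage cisplatin, intravenous cisplatin, gavage water, intravenous water. In Glyatl2 the 2 water groups were in the opposite order. Cisplatin below water follows from the choice of genes, and the water rats of Spp2, Ppp1r1a and Nat8f1 overlapped between the experiments. How many other features had either order was not counted.

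The individual rats differed in the same way across most of the genes. Gavage cisplatin rat 3 was the lowest of its group for 6 of 6 genes and on all 10 probes. It was the lowest for 32.6% of all features, and for 60.3% of the 874 features more than 2 log2 units down in the intravenous experiment. Intravenous cisplatin rat 1 was the lowest of its group for 5 of 6 genes and on 8 of 10 probes, against 31.3% of all features. Among the 1346 features more than 2 log2 units down in the gavage experiment, that rat was the lowest for 87.2%. The 5 of 6 genes are near that share. Its remaining share of the intravenous water mean was 0.361% for Spp2, 0.705% for Nat8f1, 0.933% for Hnmt, 1.46% for Rgn and 1.59% for Ppp1r1a. In intravenous rats 2 and 3 the same shares ran from 3.93 to 15.1%. Glyatl2 was the exception, with 29.6% in rat 1 against 24.6 and 37.5% in rats 2 and 3.

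**Figure D2:**
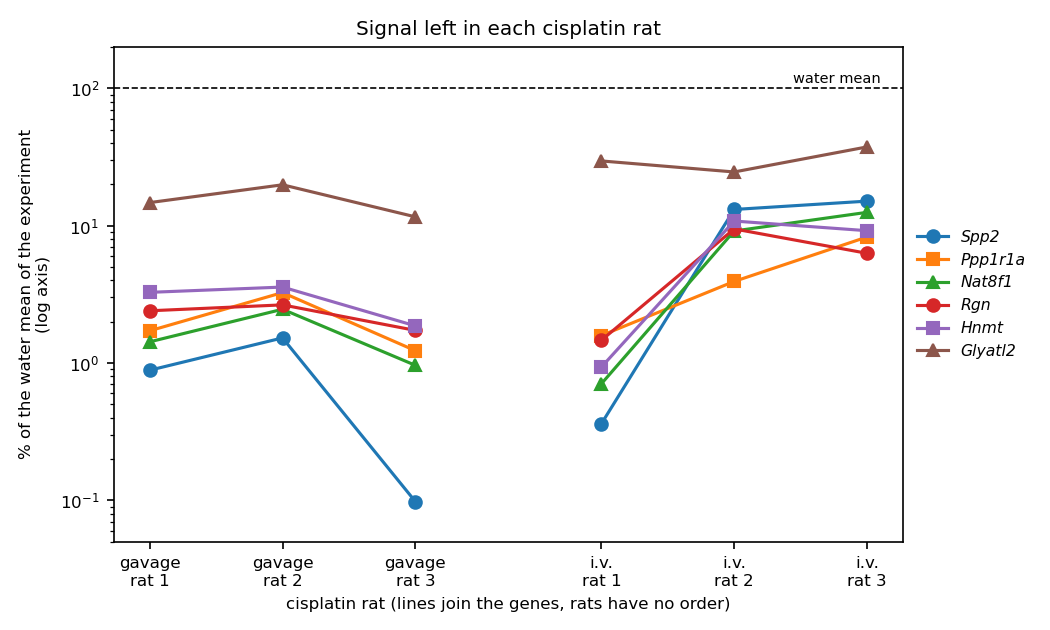
Signal left in each cisplatin rat as a percentage of the geometric mean of the 3 water rats of its experiment (log axis), brightest probe of each gene. Lines join the values of a gene and imply no order of rats. Gavage rat 3 is lowest for all 6 genes, and intravenous rat 1 is lowest for all but Glyatl2.

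The effects of the 2 experiments were set against each other by the difference of the log2 changes, intravenous minus gavage, in limma, adjusted over all 32215 features. Because the genes were picked for their falls in these arrays, this test is not wholly free of the choice. All 6 differences were positive, that is, the estimated fall was smaller intravenously at the lower daily dose, but 0 of 6 passed an adjusted p of 0.05. Of all features 1.19% passed. The median difference over all features was −0.03. Positive differences were also common in the tubule marker lists described below. Their median was 1.33 (0.29 to 2.17) over 7 early and 1.17 (−0.94 to 2.52) over 8 late proximal tubule markers. Over 6 thick ascending limb markers it was 0.39 (−0.21 to 2.62). For Glyatl2 the difference was 1.00 ± 0.29 (95% interval 0.35 to 1.66, limma adjusted p = 0.115). The difference was 3.03 ± 1.91 for Spp2 (−1.22 to 7.27, adjusted p = 0.41) and 1.53 ± 1.24 for Nat8f1 (−1.23 to 4.28, adjusted p = 0.528). It was 1.00 ± 0.78 for Rgn (−0.75 to 2.74, adjusted p = 0.515), 0.97 ± 0.73 for Ppp1r1a (−0.66 to 2.60, adjusted p = 0.498) and 0.70 ± 1.08 for Hnmt (−1.71 to 3.11, adjusted p = 0.758). The intervals of Spp2, Nat8f1 and Hnmt hold differences of 3 log2 units as well as 0, so these data do not show that the experiments acted alike. One rat decided the call for some of them: without intravenous cisplatin rat 1 the difference was 2.83 for Nat8f1 (adjusted p = 0.0231), 1.80 for Rgn (adjusted p = 0.0313) and 1.84 for Hnmt (adjusted p = 0.0406). Leaving that rat out raised the calls over the whole array too, to 2153 of the 32215 features, against 382 with all rats. Set directly side by side, the intravenous and gavage cisplatin rats overlapped for every gene except on the brightest Glyatl2 probe, where 4.16 to 6.33 stood against 2.36 to 4.04. Such a gap with intravenous above gavage was present for 6.73% of features.

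The water groups, which the choice of genes did not use as a contrast, were compared in the same fit. The gavage water arrays were all on slide 1 and the intravenous water arrays all on slide 2. Between these water arrays, slide and experiment cannot be told apart. Hnmt was 1.82-fold and Rgn 1.60-fold higher in intravenous than in gavage water rats, with all 3 intravenous rats above all 3 gavage rats for both genes. Such a gap upward was present for 13.8% of features. Glyatl2 was 0.829 times as high, with all 3 intravenous rats below all 3 gavage rats, as for 15% of features. Spp2, Ppp1r1a and Nat8f1 overlapped, at 1.03, 1.09 and 1.27 times. None of the 6 passed the limma test. The log2 difference was 0.87 ± 0.77 for Hnmt (−0.84 to 2.57, adjusted p = 0.669), 0.68 ± 0.56 for Rgn (−0.55 to 1.92, adjusted p = 0.636) and −0.27 ± 0.21 for Glyatl2 (−0.73 to 0.19, adjusted p = 0.613). The lowest unadjusted limma p of the 6 was 0.223, for Glyatl2, and the share of all features that passed the adjusted threshold was 0%. The standard errors come from all 12 arrays, including the cisplatin rats, whose spread was far wider. In a fit of the 6 water arrays alone, chosen after seeing the data, 922 features passed, and the adjusted p was 0.137 for Hnmt, 0.168 for Rgn and 0.298 for Glyatl2.

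To see which genes of the array ran most like each of the 6, the 12 log2 values of a gene were centred on their mean. The root mean square difference between 2 genes, in log2 units, then measured likeness. All points share the same 12 rats, and this is a description. Rgn and Hnmt were the most alike pair of the 6, at 0.294, and were each other's nearest named gene. Rgn was next to Slc16a4, a monocarboxylate transporter family member (0.327), and Dio1, the deiodinase that activates thyroxine (0.483). Hnmt was next to Slc22a2, the organic cation transporter that takes up cisplatin (0.358), and Slc7a13, an amino acid transporter of the late proximal tubule (0.422). Nat8f1 ran most like Tlr12, a Toll-like receptor (0.395), Atp12a, a proton and potassium pump (0.405), and Hnmt (0.426). Ppp1r1a ran most like Slc16a4 (0.404), Egf, the epidermal growth factor made by the thick ascending limb and distal tubule (0.449), and Dio1 (0.533). Spp2 had the loosest neighbours, Slco1a6, an organic anion transporter (0.613), Slc22a22, a prostaglandin transporter (0.677), and Hsd17b2, a steroid dehydrogenase (0.694). Glyatl2 had the closest: Fam151a (0.173), Anks4b, a scaffold of the brush border (0.180), and Grhpr, glyoxylate reductase (0.192). The distance from Glyatl2 to the other 5 genes was 1.59 to 2.55, above its median distance of 1.19 to all named genes. For the other 5 that median was 2.64 to 3.58.

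Relatives of Nat8f1 and Glyatl2 were counted in a list of glycine and N-acetyl conjugation. Of its 16 other genes tested, 12 fell and 0 rose by gavage, and 13 fell and 0 rose intravenously, where 30.2 and 32.6% of all features fell and 29.5 and 26.1% rose in the gavage and the intravenous experiment. The list's median was −2.33 by gavage and −1.62 intravenously. Nat8, the cysteine conjugate acetyltransferase, fell by 2.91 ± 0.31 on the log2 scale by gavage and fell by 1.78 ± 0.31 intravenously. The gavage and intravenous changes were −3.10 and −1.87 for Nat8f2 and −2.07 and −1.84 for Nat8f5. Acsm1, a medium-chain acyl-CoA synthetase that activates acids for glycine conjugation, had −2.09 and −1.08. A second list, of 11 genes with no overlap with the 6, held enzymes that act on glutathione conjugates, cysteine conjugates or mercapturates. It mixes steps that lead to mercapturates with steps that lead away from them. Of the 11 genes, 9 fell and 2 rose by gavage, and 8 fell and 2 rose intravenously. Kyat1, a cysteine conjugate beta-lyase, fell by 2.88 by gavage and fell by 1.88 intravenously. The gavage and intravenous changes were −3.37 and −2.23 for Acy1, which deacetylates mercapturates, −4.07 and −3.16 for Anpep, the brush border aminopeptidase N, and −1.90 and −1.15 for Ggt1, gamma-glutamyltransferase. Ggt7 and Dpep2 went the other way, at 0.75 and 0.77 by gavage and 0.41 and 1.35 intravenously.

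Around Hnmt, 8 other genes of histamine synthesis, uptake, breakdown and reception were tested. By gavage 1 rose and 3 fell, and intravenously 1 rose and 5 fell. The gene that rose was Aoc1, diamine oxidase, the enzyme that breaks histamine down outside cells. It was well above background on all 6 cisplatin arrays and on 0 of 6 water arrays, so its rise is a bound, the cisplatin mean over the lowest signal well above background on the water arrays. It was at least 14.1-fold higher by gavage and at least 15-fold higher intravenously. These bounds were not tested. The fitted log2 changes were 5.85 by gavage (limma adjusted p = 3.85e-06) and 6.19 intravenously (limma adjusted p = 5.34e-06). Both fitted values depend on water signals below background. Slc22a2, which also carries histamine, fell by 5.25 ± 0.84 by gavage and fell by 3.93 ± 0.84 intravenously. Maob, which oxidises methylhistamine, had −1.67 by gavage and −0.999 intravenously, and Hrh4, a histamine receptor, had −2.14 and −2.83. The 2 enzymes that open the routes of histamine breakdown, Hnmt and Aoc1, thus had opposite directions in every cisplatin rat.

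Around Rgn, 7 of 9 other genes of the ascorbate and glucuronate pathway fell and 1 rose in each experiment. Akr1a1, which makes gulonate, the step before the lactone that Rgn forms, fell by 1.68 ± 0.11 by gavage and fell by 0.99 ± 0.11 intravenously. The gavage and intravenous changes were −1.29 and −0.64 for Ugdh, which makes UDP-glucuronate, −2.53 and −1.46 for Slc23a1, the ascorbate transporter of the brush border, and −3.54 and −2.25 for Dcxr, a xylulose reductase. Gusb, the lysosomal beta-glucuronidase, rose by 0.52 by gavage and 0.69 intravenously.

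Around Spp2, the 9 other tested genes of the cystatin superfamily split: 4 fell and 1 rose by gavage, and 3 fell and 3 rose intravenously. Ahsg, fetuin-A, fell by 2.13 ± 0.13 by gavage and fell by 1.54 ± 0.13 intravenously. Hrg, histidine-rich glycoprotein, had −8.20 and −4.18, and was well above background on only 2 of the 3 gavage cisplatin arrays. Fetub, fetuin-B, fell by 2.79 by gavage, and its intravenous value of −1.07 did not pass (adjusted p = 0.128). Cst6, cystatin E/M, rose by 3.39 by gavage and 3.13 intravenously. The kininogens Kng1 and Kng2 rose intravenously, by 1.97 and 1.57, and did not pass by gavage, at −0.46 and −0.74. They are named after their values were seen. Their water rats differed too: Kng1 read 0.242, 0.633 and 0.483 in intravenous cisplatin rats, against 0.107, 0.244 and 0.0472 in intravenous water rats, and 0.273, 0.495 and 0.442 in gavage cisplatin rats, against 0.600, 0.452 and 0.568 in gavage water rats. The intravenous water rats were thus the low group, and their arrays lay on another slide than those of the gavage water rats. Intravenous minus gavage water was −2.32 for Kng1 and −2.06 for Kng2 (limma adjusted p = 0.129 and 0.127). The difference of the cisplatin effects did not pass for either gene (adjusted p = 0.134 and 0.109). Among 7 genes of BMPs, the ligands that Spp2 binds, and of BMP receptors, 2 rose and 2 fell by gavage. Intravenously 2 rose and 1 fell. Bmp2 rose by 2.05 by gavage and 1.82 intravenously and Bmp6 by 1.68 and 0.98. Bmp4 had −1.17 by gavage and −1.14 intravenously, and Bmpr1a, a receptor, fell by 0.44 by gavage and stood at −0.26 intravenously without passing.

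Around Ppp1r1a, the 18 other tested genes of protein phosphatase 1, its inhibitors and protein kinase A showed no common direction. By gavage 5 rose and 7 fell, and intravenously 5 rose and 4 fell, with medians of −0.01 and −0.03. Ppp1cc, a catalytic subunit, fell by 0.90 by gavage and fell by 0.77 intravenously. Prkar2b, a regulatory subunit of protein kinase A, rose by 1.79 and 1.04, and the inhibitors Ppp1r14b and Ppp1r14c rose by 1.03 and 1.68 by gavage and by 0.99 and 0.89 intravenously. Ppp1r1b (DARPP-32), the nearest relative of Ppp1r1a and chosen after its values were seen, fell by 1.27 ± 0.34 by gavage and fell by 2.39 ± 0.34 intravenously. Scaled on the spike-in controls in place of the 75th percentile, 13 of these 18 rose and 1 fell in each experiment, so the split of that list rests on the scaling.

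Of 13 tested transcription factors of the tubule, 10 fell and 2 rose by gavage, and 11 fell and 1 rose intravenously. Hnf4a, a nuclear receptor of the proximal tubule, fell by 3.20 ± 0.30 by gavage and fell by 1.83 ± 0.30 intravenously. The gavage and intravenous changes were −2.67 and −1.47 for Maf, −2.30 and −1.02 for Cebpa, and −1.35 and −1.35 for Tfcp2l1, a factor of the distal nephron. Pax8 rose by 1.14 and 0.68, and Cebpb rose by 0.95 by gavage and stood at 0.65 intravenously without passing.

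**Figure D3:**
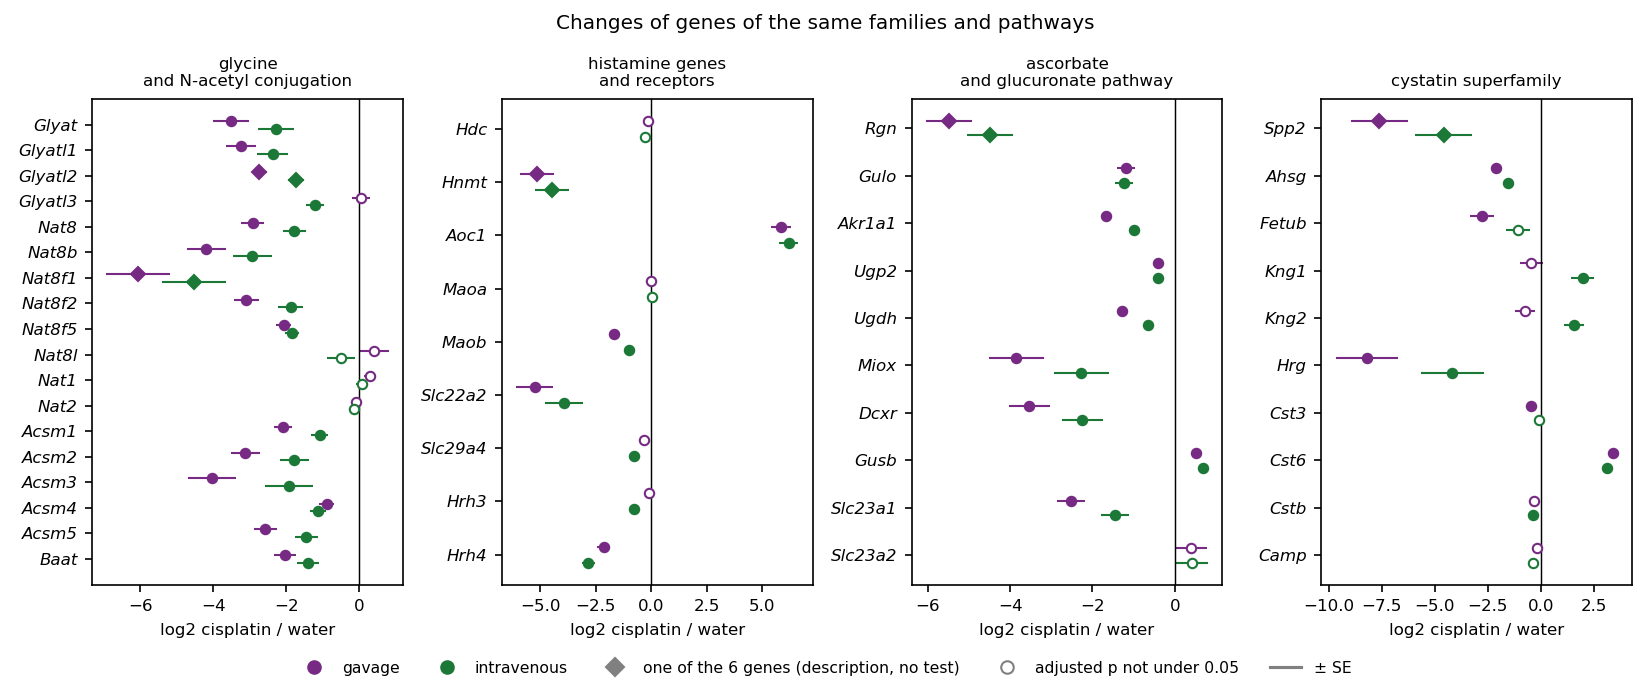
Log2 change with cisplatin (x axis, cisplatin over water, ± SE) of the tested genes of 4 lists, gavage in purple and intravenous in green. Diamonds mark the 6 genes except Ppp1r1a, whose list is not drawn. They are shown as a description, and open circles did not pass an adjusted p of 0.05. Most conjugation and ascorbate genes lie left of 0, and Aoc1 lies far to the right in the histamine panel, where its fitted value depends on a water signal below background.

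Scaled on the spike-ins, the median of all features lay at 0.66 by gavage and 0.49 intravenously, and the 6 genes were still lower, from −6.96 for Spp2 to −2.08 for Glyatl2 by gavage. On that scale 4 of the conjugation genes rose and 11 fell by gavage, 2 of the mercapturate genes rose and 5 fell, and 2 of the ascorbate genes rose and 6 fell. The cystatin list had 3 up and 3 down, the histamine list 3 and 3, the BMP list 4 and 1, and the transcription factors 3 and 8. Intravenously 1 conjugation gene rose and 9 fell, 2 mercapturate genes rose and 4 fell, and 2 ascorbate genes rose and 4 fell. The intravenous counts were 4 up and 1 down for cystatins, 2 and 2 for histamine, 3 and 1 for the BMP list and 2 and 7 for the transcription factors. Of the pathway genes named above, only Bmpr1a and Kng1 turned sign on that scale. Bmpr1a stood at 0.22 by gavage and 0.30 intravenously, and Kng1 at 0.20 by gavage. Many list genes not named here turned sign too, some of them called as falls by gavage on the main scale. Without intravenous cisplatin rat 1, an alternative chosen after seeing the data, the intravenous counts were 12 down and 0 up for conjugation, 6 and 1 for mercapturates, 5 and 1 for histamine and 7 and 1 for ascorbate. They were 2 down and 3 up for cystatins, 2 and 2 for the BMP list, 4 and 4 for the phosphatase list and 11 and 1 for the transcription factors.

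Most markers of the proximal tubule, thick ascending limb and distal convoluted tubule were lower in cisplatin rats, as the 6 genes were. Those of the collecting duct were lower by less. Of 7 early proximal tubule markers, which begin with Slc5a2 and Slc5a12, 7 fell by gavage and 6 intravenously, with medians of −3.34 and −2.14. Their summed scaled signal was 61.5 to 102 in gavage cisplatin rats, against 603 to 708 in gavage water rats, and 88.6 to 239 in intravenous cisplatin rats, against 599 to 666 in intravenous water rats. Of 8 late proximal tubule markers, which begin with Slc5a1 and Slc7a13, 6 fell by gavage and 7 intravenously, and Cyp4b1, named after its values were seen, rose in both. Their sum was 17.9 to 82.5 in gavage cisplatin rats, against 767 to 797 in gavage water rats, and 45.8 to 258 in intravenous cisplatin rats, against 651 to 815 in intravenous water rats. All 6 thick ascending limb markers, led by Umod and Slc12a1, fell in both experiments, with medians of −2.45 by gavage and −2.21 intravenously. Their sum was 5.23 to 10.68 in gavage cisplatin rats, against 477 to 527 in gavage water rats. Intravenously that sum was 5.04 to 48.6 in cisplatin rats, against 496 to 582 in water rats. To these sums Umod alone gave 414 to 461 in gavage water rats and 424 to 503 in intravenous water rats. In cisplatin rats Umod gave 0.487 to 2.51 by gavage and 0.336 to 29.3 intravenously. Every one of these markers was well above background on all 12 arrays. The sums of all 3 lists were lowest in gavage rat 3 and intravenous rat 1, the same rats that were lowest for Spp2, Ppp1r1a, Nat8f1, Rgn and Hnmt. All 5 macrophage and all 5 fibroblast markers rose in both experiments, and the macrophage sum was 9.83 to 17.0 in gavage cisplatin rats, against 2.95 to 3.45 in gavage water rats. Of 9 collecting duct markers, which begin with Aqp2 and Aqp3, 7 fell and 0 rose in each experiment, with medians of −0.94 by gavage and −0.67 intravenously. Their sum, to which Aqp2 alone gave 85.4 to 167 in gavage cisplatin rats, was 166 to 266 in gavage cisplatin rats, against 227 to 264 in gavage water rats, and 124 to 214 in intravenous cisplatin rats, against 203 to 213 in intravenous water rats. All 4 tested distal convoluted tubule markers fell in both experiments, with medians of −2.29 by gavage and −2.24 intravenously. Of 5 podocyte markers, 4 fell and 0 rose in each experiment. Of 5 endothelium markers, 3 fell by gavage and 2 intravenously, and 0 rose. Of 6 hepatocyte markers, Alb, Ttr and Cyp3a2 did not pass the filter on dim probes. Of the 3 tested, all named after their values were seen, Apob fell (−2.24 by gavage, −3.72 intravenously) and Apoa1 did not pass. Serpina1 rose, at least 5.51-fold by gavage and at least 3.02-fold intravenously, with no water array well above background. What part the segment markers have in the values of the 6 genes was not tested.

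**Figure D4:**
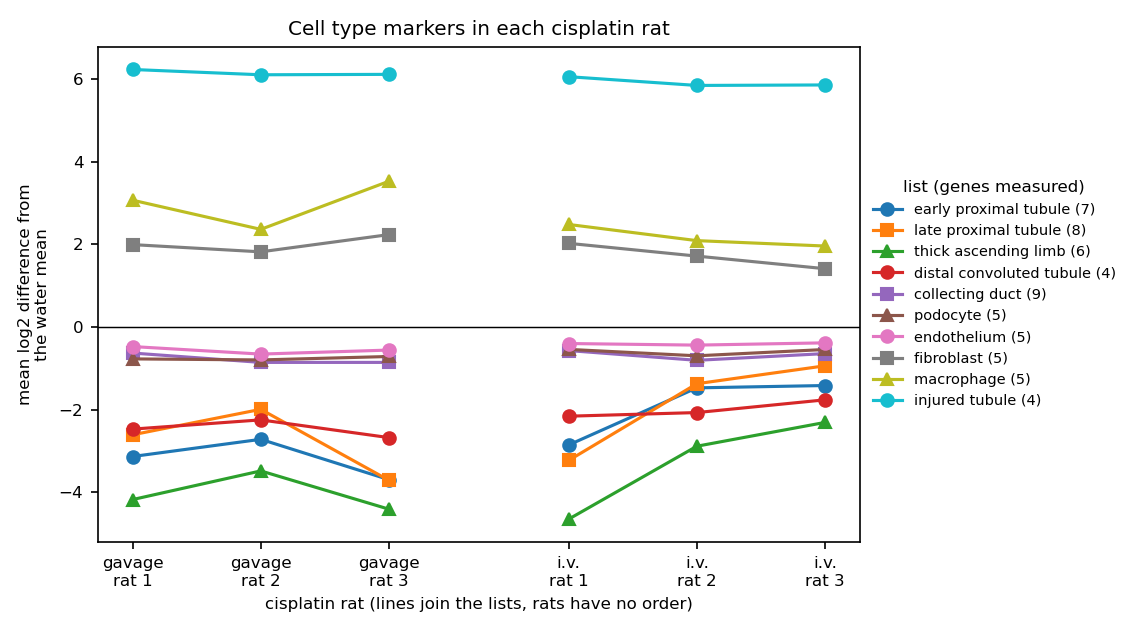
Mean log2 difference of each cell type marker list from its water mean (y axis) in the 6 cisplatin rats (x axis), one line per list, with the number of genes measured in the legend. Lines imply no order of rats. The proximal tubule, thick ascending limb and distal convoluted tubule lists lie lowest in gavage rat 3 and intravenous rat 1. The injured tubule, macrophage and fibroblast lists lie above 0 in every cisplatin rat.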

How the data were processed

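Total RNA of renal cortex was labelled with Cy3, per the labels' protocols, and 12 arrays were scanned. Per the submitters' processing notes the software was Agilent Feature Extraction 10.7, and the file headers give version 10.7.1.1. The deposited intensity used is the background-subtracted processed signal of each spot, per the file headers, not normalized between arrays. The authors' deposited table holds a linear ratio, that intensity over the 75th percentile of its array, and served as an alternative.

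Accessions were matched to a RefSeq table of GRCr8: 28206 probes had 1 symbol and 33331 had none. The 1439 control spots and 82 spots marked uneven were left out. Log2 intensity minus the 75th percentile of each array was used. The brightest probe stood for a gene, and a feature was tested if well above background on all 3 arrays of a group, which left 32215 of 45433 features and 12610 named genes. The 4 groups were fitted in limma 3.58.1 (R 4.3.3), with two-sided p-values adjusted by Benjamini and Hochberg's method over every feature and a threshold of 0.05 (8 residual degrees of freedom, prior 2.09). The script was tested on simulated data. Rats are called replicates by the labels, and precision is limited by their number.

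The 6 genes, the gene lists, the naming rule and the motifs were chosen with earlier results of these data known. Named genes were the 6, the 3 genes most alike for each, up to 4 genes of each pathway list with the smallest gavage p, list members that moved against the rest where 3 or fewer did, and the first 2 genes of marker lists. Replicate numbers were not treated as pairs in the main fit. Deviations of same-numbered rats from their group means correlated at −0.35 to 0.18. With 3 rats per group, these values cannot show whether the rats were paired. Normexp correction with an offset of 50 was run on median spot signals, since the files used here hold no mean signal. Alternatives covered the background correction, 3 scalings, the dim probe filter, the probe choice, the slide, the replicate block and leaving out each array.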

Additional observations from a re-analysis of the deposited data

Results flagged for a closer look

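Ugdh, the enzyme that makes UDP-glucuronate, was called in the test of the difference between the cisplatin effects of the 2 experiments. It was 1 of 91 tested genes of the 8 pathway lists, or 1.1%, where 1.19% of all features were called, so the count is near the background. Its scaled signal was 2.55, 2.40 and 2.24 in gavage cisplatin rats, against 6.12, 5.93 and 5.46 in gavage water rats. It was 3.33, 3.13 and 3.28 in intravenous cisplatin rats, against 5.03, 5.02 and 5.12 in intravenous water rats. The difference, intravenous minus gavage, was 0.65 ± 0.11 on the log2 scale (limma adjusted p = 0.041), with all 3 intravenous cisplatin rats above all 3 gavage cisplatin rats. The call was lost in 14 of 21 alternatives, over which the adjusted p ran from 0.00561 to 0.151. Among those that lost it were quantile normalization (0.0502), spike-in scaling, no filter on dim probes, the replicate block and leaving out any array other than gavage cisplatin rat 1 or intravenous cisplatin rat 1.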

How the results depend on the processing

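The 6 genes were lower with cisplatin in both experiments under every alternative run, leaving out any array included, but the sizes moved. The median of the 6 by gavage was −4.95 with spike-in scaling, which shifts all features, and −5.86 to −5.36 with 1 array left out. Intravenously it was −5.14 to −3.28 with 1 array left out, −3.28 being the value without intravenous cisplatin rat 1. Slide could be fitted as a fixed block for the gavage and water contrasts only. That gavage contrast rested on cisplatin rat 1 alone against the 3 gavage water rats, all on slide 1. Spp2 was then −6.82 by gavage, which is the value of 1 rat and not a group effect freed of slide. The water contrast took its slide offset from gavage cisplatin rat 1 against rats 2 and 3. The 382 features whose cisplatin effects differed between the experiments became 0 with quantile normalization, with spike-in scaling, without the filter on dim probes and with the replicate block, and 591 with slide as a random block. With 1 array left out the count ran from 0 to 2409, with 2409 without gavage cisplatin rat 1, 2153 without intravenous cisplatin rat 1 and 2 without gavage water rat 1. The call of Ugdh was lost wherever the count was 0, and without gavage water rat 1. The adjusted p of the difference ran from 0.0505 to 0.676 for Spp2 and from 0.0902 to 0.238 for Glyatl2 over all alternatives. Between the water groups the count of 0 became 8 with normexp, 6 with slide as a fixed block and 922 with the 6 water arrays alone, and it ran from 0 to 1108 with 1 array left out, 1108 without gavage cisplatin rat 1. The water differences of 2 genes changed sign near 0: Spp2 ran from −0.030 to 0.11 with 1 array left out, −0.030 without gavage water rat 3, and Ppp1r1a was −0.092 with slide as a fixed block. The replicate block gave 18698 features called by gavage, against 19211 without it, and 18310 against 18909 intravenously. The cause of these changes was not tested.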
